A study of Homo sapiens with 18 samples.

Results

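Tissue inhibitors of metalloproteinases and the matrix metalloproteinases they restrain were read in BE(2)-m17 cells, a human neuroblastoma line, that did or did not overexpress the transporter ABCC1. The 10 genes were TIMP1, TIMP2, TIMP3, TIMP4, RECK, MMP2, MMP9, MMP14, MMP15 and MMP16, taken by symbol from the 57905 Ensembl gene IDs counted in each library. No measured value was used to choose them, but TIMP3 was among the genes that the study itself singled out on its first experiment, so the fall of TIMP3 in that experiment is not independent evidence of its direction. All cells, controls included, carried an APP transgene on the vector pSBbi-Hyg-APP. The ABCC1 line carried pSBbi-Pur-ABCC1(WT), which holds a codon-optimized ABCC1, and the empty vector line, called Puro in the labels, carried pSBbi-Pur alone. Both are stable lines made with Sleeping Beauty transposon vectors under hygromycin and puromycin selection, and no isolation of single-cell clones is described. There were 3 experiments (RNA1, RNA2 and RNA3) with 3 libraries of each line, 18 libraries in all, from 14000000 cells plated and RNA taken on the fourth day. The second experiment is taken here as the cryopreserved cells and the third as newly transfected cells, from the order in the study's text, since the labels do not name them. On this reading RNA1 and RNA2 share the same pair of transfected lines and RNA3 holds a new pair. The experiments are then not all independent pairs of lines, also in the fits that join them. The labels do not say that libraries of a group came from separate cultures. The study's methods describe a fresh plating of each line every week, but nothing ties a library number to a week. The p-values measure the spread between these samples.

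TIMPs are small secreted proteins that block the active site of matrix metalloproteinases (MMPs), the zinc enzymes that cut collagen, laminin and other matrix proteins. TIMP3 differs from its homologs in that it stays bound to the extracellular matrix and also inhibits ADAM sheddases such as ADAM10 and ADAM17, which cut membrane proteins including APP. TIMP2 can also help to activate an MMP, because it bridges the precursor of MMP2 to MMP14 at the cell surface. RECK is a membrane-anchored inhibitor, MMP2 and MMP9 are the gelatinases, and MMP14, MMP15 and MMP16 are anchored in the membrane.

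Between 27331531 and 57174128 read pairs per library fell on Ensembl genes in RNA1, 19340988 to 30682665 in RNA2 and 8829522 to 13229834 in RNA3. The depth was lowest in RNA3, while the spread between replicates was widest in RNA2, with a biological coefficient of variation of 5.67% in RNA1, 35.3% in RNA2 and 19.7% in RNA3. The ABCC1 transgene had 51035 to 594404 read pairs in each ABCC1 library and at most 15 in any empty vector library, as the labels have it. All 10 markers of the adrenergic neuroblastoma state were at 1 CPM (read pairs scaled to the normalized library total) or more in every group. In RNA1 8 of 12 mesenchymal and 2 of 5 Schwann cell markers reached this limit too. In RNA2 and RNA3 all 5 Schwann cell markers did, and 11 or 12 of the mesenchymal ones, so there it does not set cell types apart. RNA1 was made with an mRNA kit and RNA2 and RNA3 with a total RNA kit, and olfactory receptor genes, taken as silent, measure what the second kit counts outside expressed genes. Their mean level in empty vector and ABCC1 cells was 0.00486 and 0.00404 CPM per kilobase of exon in RNA1, 0.576 and 0.302 in RNA2, and 1.57 and 1.24 in RNA3. It was lower with ABCC1 in every experiment without overlap of the libraries, from 0.484 to 0.659 against 0.144 to 0.426 in RNA2. As a covariate in the fits below, this level was scaled to all assigned pairs instead. On that scale empty vector replicate 2 of RNA3 (1.37) lay below ABCC1 replicate 1 (1.47). The covariate still separated the lines in RNA1 and RNA2, so a call lost with it cannot tell line from background.

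The starts of TIMP3 and TIMP1 are shown because these were the inhibitors that moved in opposite directions. Each sequence is the 250 bases before the RefSeq start on GRCh38.p14, read on the gene's own strand. In capitals are matches on either strand to GGGCGG, the core bound by SP1, and to TGAGTAA, a variant of the AP-1 element.
TIMP3, plus strand, chr22:32801455-32801704: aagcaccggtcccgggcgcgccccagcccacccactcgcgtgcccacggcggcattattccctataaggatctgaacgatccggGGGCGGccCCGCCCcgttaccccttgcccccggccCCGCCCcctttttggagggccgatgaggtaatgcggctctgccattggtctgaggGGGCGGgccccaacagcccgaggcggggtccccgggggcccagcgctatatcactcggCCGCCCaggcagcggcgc
TIMP1, plus strand, chrX:47582186-47582435: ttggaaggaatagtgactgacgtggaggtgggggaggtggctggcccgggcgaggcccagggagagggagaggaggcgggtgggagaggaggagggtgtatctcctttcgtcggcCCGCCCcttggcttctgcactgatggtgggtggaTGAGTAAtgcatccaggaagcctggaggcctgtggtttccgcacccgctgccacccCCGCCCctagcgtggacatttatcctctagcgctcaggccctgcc
The TIMP3 stretch was 72.4% G or C with 26 CpG pairs and 5 GGGCGG matches, against medians of 58.0% and 11 CpG over 35116 promoters of this length. The TIMP1 stretch was 64.8% G or C with 12 CpG pairs, 2 GGGCGG matches and a TGAGTAA that begins 101 bases before the start. GGGCGG was held by 42.6% of all these promoters and TGAGTAA by 2.21%. Neither stretch held TGANTCA, the common AP-1 element, which 6.57% of promoters held, nor CGGAAG, an ETS core, which 16.5% held, and no letters of these motifs overlapped one another. Promoters of the same source for TIMP4, RECK, MMP14 and MMP15 held 1, 3, 1 and 5 GGGCGG matches. No entry was found for TIMP2, MMP2, MMP9 and MMP16.

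TIMP3 had the largest fall of the members in RNA1, RNA3 and the joint fit, while in RNA2 the fitted values of TIMP4 and MMP9 were lower still but did not pass the test. In RNA1 the empty vector libraries held 31.1, 28.8 and 28.0 CPM of TIMP3 (ENSG00000100234, GRCh37 chr22:33197687-33259030, plus strand) and the ABCC1 libraries 7.62, 7.72 and 7.41 CPM. The groups were far apart, and the 3 ABCC1 libraries lay closer together than the controls. In RNA2 the values were 12.5, 13.7 and 14.3 CPM in empty vector cells against 6.76, 8.52 and 9.29 CPM, again without overlap. In RNA3 they were 22.2, 33.8 and 22.7 CPM against 14.6, 15.3 and 12.5 CPM, with replicate 2 of the empty vector cells well above the other controls. In a bulk sample, fewer cells with the transcript and less transcript per cell cannot be told apart.

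The log2FC of TIMP3, ABCC1 against empty vector, was -1.95 (SE 0.07, edgeR quasi-likelihood test, Benjamini-Hochberg adjusted p = 1.18e-08) in RNA1. It was -0.90 (SE 0.17, adjusted p = 3.51e-04) in RNA3, and both experiments passed the threshold of 0.05. In RNA2 it was -0.72 (SE 0.20, adjusted p = 0.0599), just short of the threshold, which limma-voom passed (adjusted p = 0.0467), as did edgeR when only genes with 10 or more counts in all 6 libraries were kept (adjusted p = 0.0246). With DESeq2 it was 0.0702, and 3 of the 14 alternatives run for RNA2 called TIMP3. TIMP3 was the only member past the stricter limit of adjusted p of at most 0.001 and a change of at least 1.5 in size. It passed in RNA1, where 2.11% of all genes tested passed this limit. The study narrowed its genes by the same limit on RNA1, TIMP3 among them, so the passing of TIMP3 there is no separate result. In RNA2 and RNA3, 0.0117% and 0.0356% of all genes passed it and no member did. The size of the fall differed between the experiments in the interaction test of all 18 libraries (adjusted p = 0.00174), a call that was lost with the background level described above as a covariate (adjusted p = 0.169). Within that fit, which scales all libraries together, the log2FC was higher than in RNA1 by 1.14 in RNA2 and by 1.02 in RNA3, which is not the exact difference of the separate fits. RNA1 differed from RNA2 and RNA3 in library kit and instrument, and in the cells, taken as cryopreserved in RNA2 and newly transfected in RNA3. These differences cannot be told apart, while RNA2 and RNA3 shared a kit and an instrument.

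**Figure D1:**
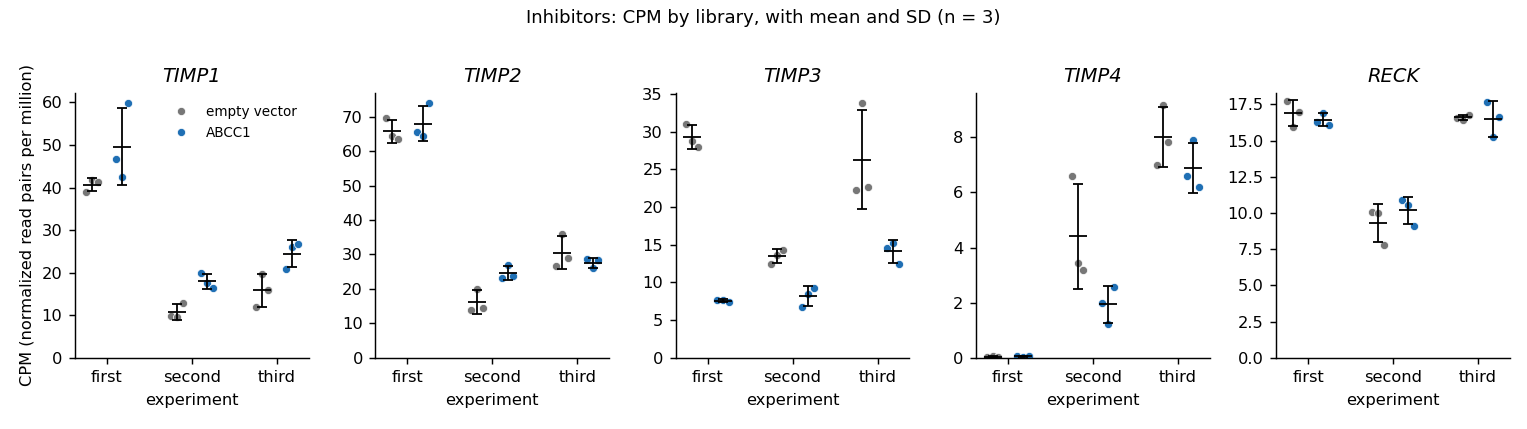
CPM (y axis, from 0, a separate scale for each gene) of the 5 inhibitor genes by experiment (x axis). Grey points are empty vector libraries and blue points ABCC1 libraries, and the bars are the mean and SD of 3 libraries. TIMP3 points of the lines do not overlap in any experiment and are lower with ABCC1, TIMP1 points do not overlap and are higher with ABCC1, and RECK points overlap in all 3.

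TIMP1, which inhibits most soluble MMPs but acts poorly on the membrane-type enzymes, had higher mean levels in ABCC1 cells in every experiment and passed the test in RNA2 and RNA3. In RNA1 TIMP1 (ENSG00000102265, GRCh37 chrX:47441712-47446188, plus strand) stood at 38.9, 41.8 and 41.2 CPM in empty vector cells and at 46.6, 42.4 and 59.8 CPM in ABCC1 cells. The groups were separate, but replicate 2 of the ABCC1 cells lay next to the controls. In RNA2 the values were 9.77, 9.70 and 12.9 CPM against 19.9, 17.6 and 16.3 CPM, and the groups were well apart. In RNA3 they were 11.9, 19.6 and 15.9 CPM against 20.8, 26.0 and 26.7 CPM, where the highest control came close to the lowest ABCC1 library.

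The log2FC of TIMP1 was 0.30 (SE 0.11, edgeR adjusted p = 0.0629) in RNA1, 0.73 (SE 0.18, adjusted p = 0.0376) in RNA2 and 0.63 (SE 0.17, adjusted p = 0.0246) in RNA3. In the joint fit of all 18 libraries, with experiment as a term, it was 0.60 (SE 0.10, adjusted p = 3.22e-05), and it was called with each library left out in turn (highest adjusted p = 2.47e-04) but not with the olfactory receptor level as a covariate (0.39, adjusted p = 0.109). The interaction test of TIMP1 did not pass (adjusted p = 0.852). The calls in single experiments were less firm. In RNA2 the call was lost without each library in turn except ABCC1 replicate 3, with adjusted p from 0.0997 to 0.132. In RNA3 it was lost without empty vector replicate 1 or 3 or ABCC1 replicate 2 or 3, with adjusted p from 0.0733 to 0.296. In RNA1 it was gained without ABCC1 replicate 2 (adjusted p = 0.00938) or ABCC1 replicate 3 (0.0238, log2FC 0.14), with DESeq2 (0.0273) and without a filter on low counts (1.68e-05). With the olfactory receptor level of each library as a covariate, the TIMP1 log2FC was 0.53 (adjusted p = 0.850) in RNA2 and 0.20 (adjusted p = 0.822) in RNA3, while that of TIMP3 was -0.47 (adjusted p = 0.913) in RNA2 and -1.13 (adjusted p = 0.00101) in RNA3.

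TIMP2 did not pass the threshold in any experiment. In RNA1 TIMP2 (GRCh37 chr17:76849059-76921469, minus strand) lay at 65.8 ± 3.34 CPM in empty vector cells and 68.0 ± 5.18 CPM in ABCC1 cells (SD, n = 3), with a log2FC of 0.05 (SE 0.06, edgeR adjusted p = 0.579). In RNA2 the libraries did not overlap, with 13.8, 20.1 and 14.5 CPM against 23.3, 26.9 and 23.7 CPM. The log2FC there was 0.61 (SE 0.17, adjusted p = 0.0644), and DESeq2 (adjusted p = 0.0229) and edgeR with RLE size factors (adjusted p = 0.0371) called it. In RNA3 it was -0.15 (SE 0.16, adjusted p = 0.730). The interaction test did not separate these values in edgeR (adjusted p = 0.308) and did in DESeq2 (adjusted p = 0.0185).

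TIMP4, the TIMP with the narrowest tissue range, was barely detected in RNA1, with 1, 2 and 1 read pairs in empty vector libraries and 4, 1 and 3 in ABCC1 libraries. No fold is given there, since the smallest amount read as a signal was 3 counts in a library. In RNA2 TIMP4 had 6.59, 3.45 and 3.18 CPM against 1.99, 1.24 and 2.58 CPM, with a log2FC of -1.18 (SE 0.41, edgeR adjusted p = 0.119), and replicate 1 of the empty vector cells was the highest. With each library of RNA2 left out in turn, this log2FC ranged from -1.40 to -0.74 (edgeR adjusted p from 0.0739 to 0.489). In RNA3 the groups overlapped and the log2FC was -0.22 (SE 0.25, adjusted p = 0.739). The olfactory receptor level per kilobase was 21.6% of the TIMP4 level in the empty vector cells of RNA2 and 32.5% in those of RNA3, and this level was itself lower with ABCC1. With it as a covariate the TIMP4 log2FC was -0.81 (adjusted p = 0.924) in RNA2 and -0.40 (adjusted p = 0.743) in RNA3, and its part in these values was not tested further.

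RECK showed the smallest differences among the inhibitors. It lay at 16.9 ± 0.910 and 16.4 ± 0.444 CPM in RNA1, at 9.30 ± 1.29 and 10.2 ± 0.930 CPM in RNA2 and at 16.6 ± 0.182 and 16.5 ± 1.24 CPM in RNA3 (empty vector, then ABCC1, SD, n = 3). The libraries overlapped in every experiment. The log2FC was -0.05 (SE 0.06) in RNA1, 0.13 (SE 0.21) in RNA2 and -0.01 (SE 0.18) in RNA3, with edgeR adjusted p of 0.601, 0.745 and 0.990, and the sign of the value in RNA3 turned with RLE size factors (0.05). Changes of the size of these errors could not be detected.

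The balance among the TIMPs can be read within each library, free of the scaling between libraries. As a share of the summed TIMP level per kilobase of exon, TIMP3 made up 15.6 ± 0.812% in empty vector cells and 4.03 ± 0.622% in ABCC1 cells of RNA1 (SD, n = 3). The shares were 20.2 ± 1.42% and 10.3 ± 1.91% in RNA2 and 22.9 ± 1.85% and 11.9 ± 1.55% in RNA3. The TIMP1 share was 55.7 ± 2.17% against 66.6 ± 2.53% in RNA1, 41.5 ± 6.19% against 57.7 ± 4.08% in RNA2 and 35.4 ± 2.59% against 52.8 ± 3.90% in RNA3. In each experiment the lowest TIMP3 share in empty vector cells lay above the highest in ABCC1 cells, and the order was the opposite for TIMP1. The shares of the genes add to the whole, so a rise of TIMP1 lowers the TIMP3 share even where TIMP3 stays level. The level of TIMP1 over that of TIMP3, per kilobase, was higher in ABCC1 cells by 2.22 (log2) in RNA1, 1.47 in RNA2 and 1.52 in RNA3, without overlap. A ratio to TIMP3 without overlap was common, at 98.6% of all genes tested in RNA1, 41.9% in RNA2 and 49.7% in RNA3, and so the separation by itself is no mark of TIMP1.

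**Figure D2:**
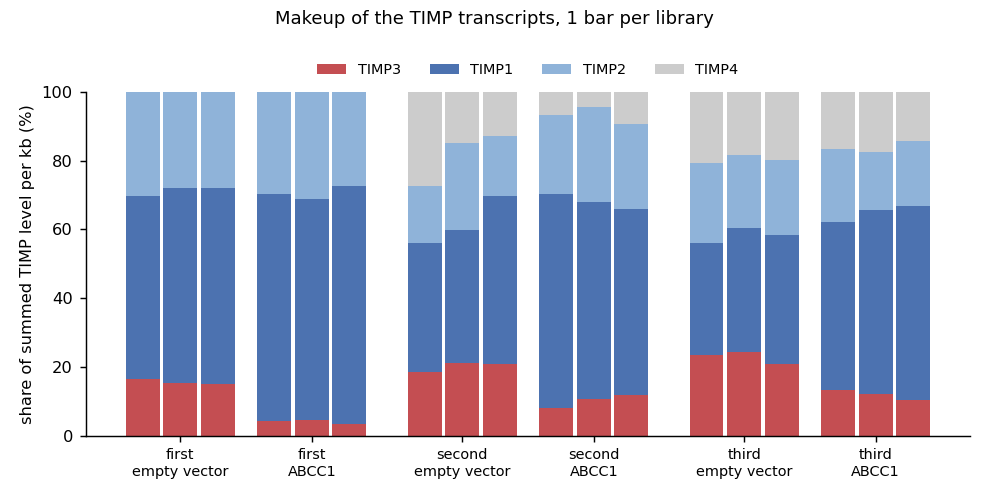
Share of each TIMP (y axis, percent) in the summed CPM per kilobase of exon of TIMP1 to TIMP4, with 1 bar for each of the 18 libraries, grouped by experiment and line (x axis). The red TIMP3 segment averages 15.6%, 20.2% and 22.9% in the empty vector cells and 4.03%, 10.3% and 11.9% in the ABCC1 cells of RNA1, RNA2 and RNA3.

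Among the proteases, MMP2, which cuts gelatin and basement membrane collagen, was the most abundant member per kilobase in all 6 groups. MMP2 (GRCh37 chr16:55423612-55540603, plus strand) stood at 53.2 ± 2.37 and 55.7 ± 3.67 CPM per kilobase in the empty vector and ABCC1 cells of RNA1. In CPM, RNA2 gave 66.3, 87.8 and 69.6 against 123, 107 and 105, with no overlap, and a log2FC of 0.58 (SE 0.17, edgeR adjusted p = 0.0707), which DESeq2 called (adjusted p = 0.0117). RNA3 gave 119, 178 and 93.1 against 114, 135 and 105 CPM, which overlapped, with a log2FC of -0.14 (SE 0.19, adjusted p = 0.782). The value of RNA3 changed sign, to 0.16, without replicate 2 of the empty vector cells, the library in which TIMP3 and TIMP2 were also highest.

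MMP9, the other gelatinase, had 1 to 5 read pairs per library in RNA1 and was not tested there. In RNA2 it had 2.74, 1.71 and 3.66 CPM against 0.764, 1.37 and 1.65 CPM, with a log2FC of -1.09 (SE 0.49, edgeR adjusted p = 0.204). The lowest control and the highest ABCC1 library almost met. In RNA3 the log2FC was -0.51 (SE 0.26, adjusted p = 0.342) and the libraries overlapped. The olfactory receptor level was 49.8% of the MMP9 level per kilobase in the empty vector cells and 56.0% in the ABCC1 cells of RNA2, and 44.6% and 50.1% in RNA3. With it as a covariate the MMP9 log2FC was -0.36 (edgeR adjusted p = 0.976) in RNA2 and 0.17 (adjusted p = 0.927) in RNA3.

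The membrane-type enzymes differed from one another. MMP14, which activates MMP2, was at 0.523 ± 0.0910 and 0.634 ± 0.128 CPM in RNA1, with 12 to 44 read pairs per library. Its log2FC was 0.25 (SE 0.25, edgeR adjusted p = 0.459), -0.49 (SE 0.33, adjusted p = 0.390) and 0.03 (SE 0.19, adjusted p = 0.961) in RNA1, RNA2 and RNA3. The olfactory receptor level came to 52.9% of the MMP14 level in the empty vector cells of RNA2 and 50.1% in those of RNA3.

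MMP15 fell in RNA1, from 32.9, 31.3 and 30.0 CPM in empty vector cells to 23.6, 24.4 and 28.2 CPM in ABCC1 cells. The groups did not overlap, and the log2FC was -0.30 (SE 0.07, edgeR adjusted p = 0.00762). MMP15 kept this call with each library of RNA1 left out in turn (highest adjusted p = 0.0460) and lost it with a spread shared across all 18 libraries (-0.20, adjusted p = 0.808) or with the background level as a covariate (-0.34, adjusted p = 0.168). In RNA2 the log2FC was 0.30 (SE 0.17, adjusted p = 0.310) and in RNA3 0.16 (SE 0.16, adjusted p = 0.701), on the other side of 0. The difference between the experiments did not pass (interaction adjusted p = 0.524).

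MMP16, on chromosome 8, was slightly higher in ABCC1 cells in each experiment. Its values were 66.4, 66.4 and 68.1 CPM against 73.5, 74.4 and 69.5 CPM in RNA1, and 36.8, 52.3 and 43.3 CPM against 61.0, 57.4 and 59.2 CPM in RNA2. In RNA3 they were 30.5, 45.4 and 30.2 CPM against 47.9, 45.0 and 51.7 CPM. The groups were separate in RNA1 and RNA2, and in RNA3 replicate 2 of the empty vector cells reached into the range of the ABCC1 cells. The log2FC was 0.11 (SE 0.04, edgeR adjusted p = 0.0675), 0.42 (SE 0.16, adjusted p = 0.146) and 0.45 (SE 0.16, adjusted p = 0.133), none of which passed. The value of RNA3 passed without empty vector replicate 2 (0.68, adjusted p = 9.78e-04) and with the stricter filter of 10 counts in each library (0.48, adjusted p = 0.0348), and was 0.18 (adjusted p = 0.786) with the background covariate. The joint fit gave 0.38 (SE 0.09, adjusted p = 0.00256), which was called with each of the 18 libraries left out in turn (highest adjusted p = 0.00846) and not with the background covariate (0.23, adjusted p = 0.394).

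**Figure D3:**
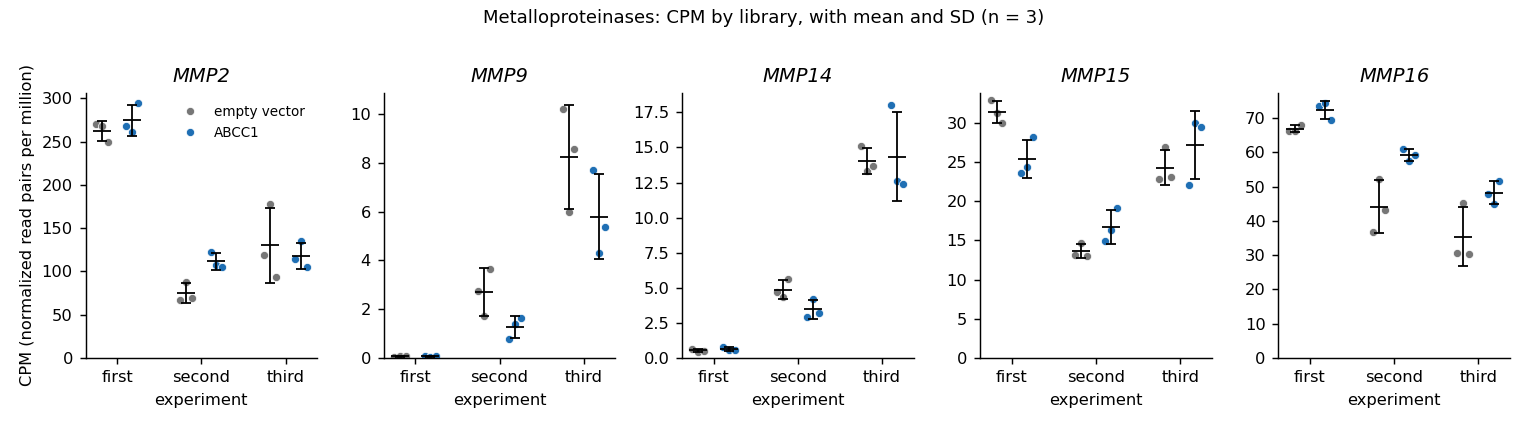
CPM (y axis, from 0, a separate scale for each gene) of the 5 metalloproteinase genes by experiment (x axis), drawn as for the inhibitors with the mean and SD of 3 libraries. MMP15 is lower with ABCC1 in RNA1 only, MMP2 points are separate only in RNA2, and MMP16 means are higher with ABCC1 in all 3 experiments.

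Counted together, 2 of the 8 members tested in RNA1 passed (TIMP3 and MMP15, both lower), where 37.6% of all genes tested passed. By direction, 19.7% of all genes were lower and 17.9% higher. In RNA2 it was 1 of 10 (TIMP1, higher) beside 1.7% of all genes, of which 1.25% were higher and 0.458% lower. In RNA3 it was 2 of 10 (TIMP1 higher, TIMP3 lower) beside 2.8%, with 2.03% higher and 0.767% lower. The direction of these calls over all genes turned in RNA3 with the background level as a covariate, from 741 higher and 280 lower to 189 higher and 599 lower. It also turned in RNA2, from 425 higher and 156 lower to 350 and 438 with the stricter filter, 2106 and 2817 with 1 spread for the 3 experiments and 593 and 766 without ABCC1 replicate 3. In the joint fit 3 of 10 passed (TIMP1 and MMP16 higher, TIMP3 lower) beside 14.1%, with 9.69% higher and 4.4% lower. With the background covariate the joint fit called TIMP3 alone of the 10 (-1.10, adjusted p = 7.06e-06), beside 2.53% of all genes. In the interaction test TIMP3 was the member called of 10, beside 1.19% of all genes. The median log2FC of the members was 0.06 in RNA1, 0.21 in RNA2 and -0.07 in RNA3, beside 0.0074, -0.19 and -0.09 over all genes tested. Libraries of the lines that did not overlap were found for 50.4% of all genes tested in RNA1, 29.8% in RNA2 and 19.5% in RNA3, so a lack of overlap is no rare event here. With 3 libraries against 3, an exact two-sided permutation test of one gene cannot give a p below 0.1.

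**Figure D4:**
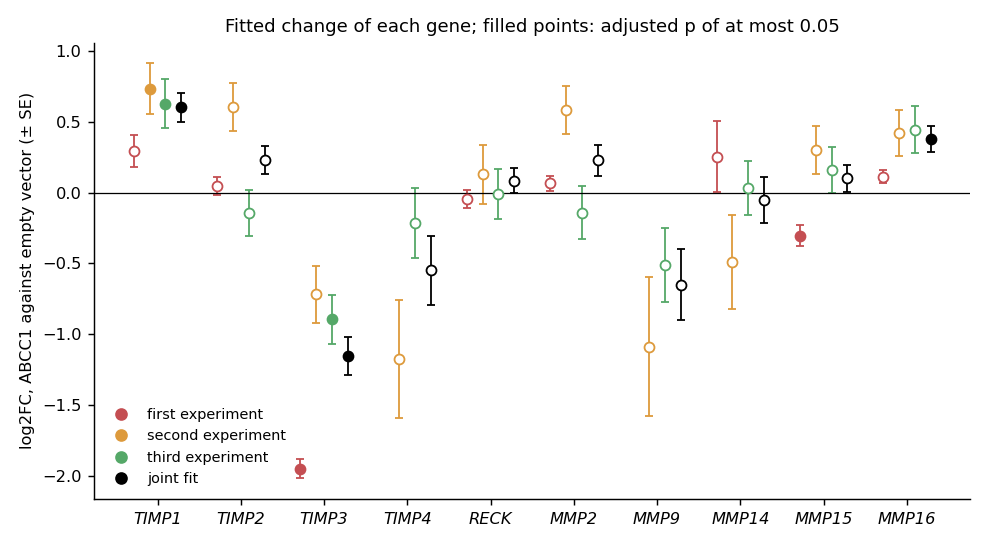
Fitted log2FC of ABCC1 against empty vector (y axis, with SE) for each member (x axis) in the 3 experiments and in the joint fit. Filled points have an edgeR adjusted p of at most 0.05. TIMP3 is below 0 and TIMP1 above 0 in every fit, and TIMP4 and MMP9 have no point for the first experiment.

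The order of the levels shifted with the experiment. In the empty vector cells of RNA1 the order per kilobase ran MMP2, TIMP1, TIMP2, MMP15, TIMP3, MMP16, RECK, MMP14, MMP9 and TIMP4, and each gene was separate from its neighbour over the 3 libraries except MMP9 and TIMP4. TIMP3 was at 6.36 ± 0.351 CPM per kilobase in these cells and at 1.65 ± 0.0338 in the ABCC1 cells, where it passed below RECK (2.72 ± 0.0734) without overlap. In the empty vector cells of RNA3 only MMP2 was separate from its neighbour, TIMP1. The other genes each overlapped their neighbour, from TIMP1 at 8.84 ± 2.14 down to RECK at 2.74 ± 0.0301 CPM per kilobase. There the olfactory receptor level of 1.57 was 27.6% of the TIMP3 level, 53.9% of the MMP16 level and 57.3% of the RECK level. For TIMP3 the share was 40.4% in the ABCC1 cells of RNA3, and 19.7% and 16.98% in the empty vector and ABCC1 cells of RNA2. After subtracting it, the change of the TIMP3 share of the TIMPs in RNA3 was -13.3 percentage points, against -10.97 without subtraction.

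**Figure D5:**
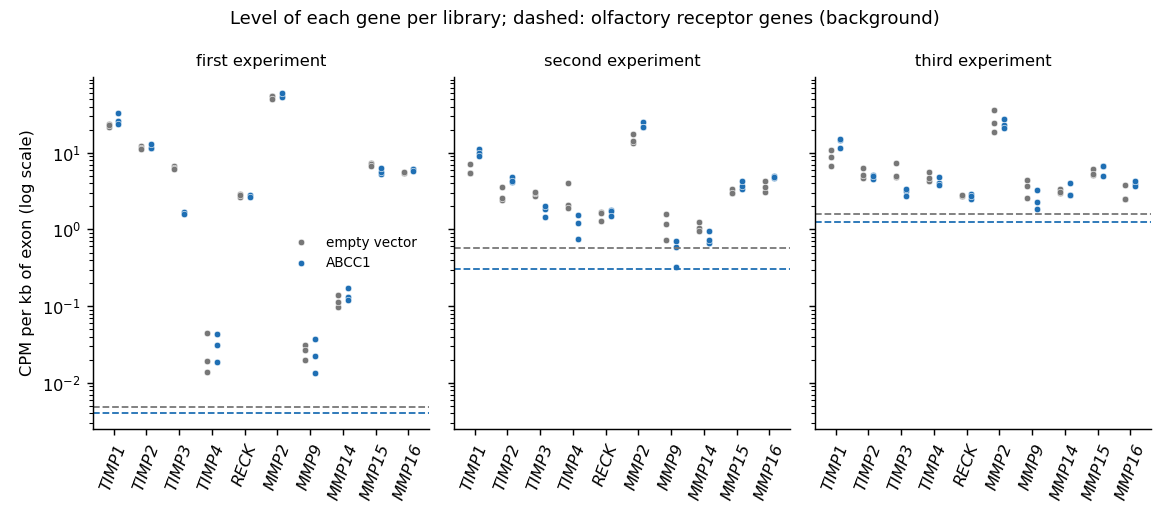
Level of each member in each library (y axis, CPM per kilobase of exon, log scale) in the 3 experiments (panels), for empty vector (grey) and ABCC1 (blue). Dashed lines give the mean olfactory receptor level of each line, which is near 0.005 CPM per kilobase in RNA1 and 1.57 and 1.24 in RNA3, and the least abundant members stand far closer to it in RNA2 and RNA3 than in RNA1.

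Reads were counted without regard to strand, and 3 TIMP genes lie inside a synapsin gene on the opposite strand, where such reads cannot be told apart by direction. TIMP1 lies in SYN1, TIMP3 in SYN3 and TIMP4 in SYN2, genes for proteins that coat synaptic vesicles. TIMP1 and TIMP3 share no exon base with their hosts, TIMP4 shares 170 with SYN2, and CEP295NL shares 198 with TIMP2 on the same strand. SYN1 fell in RNA1 (log2FC -1.07, SE 0.08, edgeR adjusted p = 3.67e-06), where TIMP1 was not lower. It did not pass in RNA2 (0.36, adjusted p = 0.294) or RNA3 (-0.14, adjusted p = 0.768), where TIMP1 rose, and its change differed between experiments (interaction adjusted p = 0.00148). SYN3 exons were at 0.626% of the TIMP3 level per kilobase in the empty vector cells of RNA1, and at 49.7% and 58.5% in those of RNA2 and RNA3. In the ABCC1 cells of RNA1, RNA2 and RNA3 they were at 1.64%, 44.8% and 77.6%. The olfactory receptor level was 39.5% and 47.2% of the SYN3 level in the empty vector cells of RNA2 and RNA3. SYN3 did not pass in RNA2 (-0.86, adjusted p = 0.170) or RNA3 (-0.49, adjusted p = 0.140), and was lower in the joint fit (-0.63, adjusted p = 0.0256) but not with the background covariate (-0.21, adjusted p = 0.827). SYN2 fell in RNA1 (-0.31, adjusted p = 5.15e-04), where TIMP4 had 1 to 4 read pairs per library. CEP295NL was at 0.662% of the TIMP2 level in RNA1 empty vector cells and at 79.9% in those of RNA2, where its log2FC was -1.07 (adjusted p = 0.0704), and it was lower in the joint fit (-0.63, adjusted p = 0.0177) but did not pass with the background covariate (-0.63, adjusted p = 0.245).

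The genes with a pattern most like that of TIMP3 were sought among 13636 genes, by Pearson correlation of log2(CPM + 0.1), centred on the mean of each experiment, over the 18 libraries. The closest were HR (0.969), COL22A1 (0.964), ARHGAP24 (0.952), SLC18A1 (0.951) and DRGX (0.951). The points share their library, line and depth, and the lines differ most in RNA1, so these values are a description. The genes were picked on the same libraries as TIMP3, so their own tests are not independent of it. All 5 fell in RNA1. HR did not pass in RNA2 (-0.54, adjusted p = 0.0693) or RNA3 (-0.42, adjusted p = 0.188), and ARHGAP24 (adjusted p = 0.188) and DRGX (0.202) did not pass in RNA2. COL22A1, a collagen of tissue junctions, fell in RNA1 (-1.46, edgeR adjusted p = 8.64e-08), RNA2 (-0.93, adjusted p = 0.00807) and RNA3 (-0.80, adjusted p = 0.00133). SLC18A1, a vesicular monoamine transporter, also fell in all 3, with log2FC of -1.38, -0.86 and -0.66. Of the members, MMP15 had a correlation of 0.25 with TIMP3, RECK -0.09, MMP2 -0.13, TIMP2 -0.17, MMP16 -0.42 and TIMP1 -0.56. Of these 6 members MMP15 was the most like TIMP3 and ranked 3245 among the genes compared. TIMP4, MMP9 and MMP14 were not compared, since a mean of at least 1 CPM in each experiment was asked for.

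Fewer of the related proteases passed in RNA2 and RNA3 than in RNA1, as was so of all genes tested (37.6% in RNA1, 1.7% in RNA2, 2.8% in RNA3 and 14.1% in the joint fit). Of 18 further MMPs, 16 had a row, and of these 3 were tested in RNA1, 14 in RNA2 and 16 in RNA3. Of them MMP17 fell in RNA1 (-0.58, SE 0.14, edgeR adjusted p = 0.00896) and none passed in RNA2 or RNA3. In the joint fit MMP7, MMP17 and MMP19 were lower and none was higher of 16. MMP7 and MMP19 were not tested in RNA1 and did not pass in RNA2 (-2.94 and -1.50, adjusted p = 0.0614 and 0.0818) or RNA3 (0.0053 and -0.23). With the olfactory receptor level, itself lower with ABCC1, as a covariate in the joint fit, no gene of these 16 passed, and MMP7 and MMP19 were at -0.58 and -0.34 (adjusted p = 0.812 and 0.778). MMP24, a neural membrane-type enzyme, was the most abundant of them per kilobase, at 10.6 ± 0.178 and 10.8 ± 0.461 CPM per kilobase in RNA1, and its log2FC was 0.02, 0.14 and 0.18 in the 3 experiments. Among 9 ADAM genes, membrane proteases of which TIMP3 inhibits some, such as ADAM10 and ADAM17, 3 rose and 2 fell in RNA1, and 1 rose in RNA2 and in RNA3. That gene was ADAM12 each time, a membrane protease of mesenchymal and muscle cells. ADAM12 rose from 3.45 ± 0.167 to 5.89 ± 0.329 CPM per kilobase in RNA1 (log2FC 0.77, SE 0.06, adjusted p = 3.66e-06), by 0.65 (SE 0.16, adjusted p = 0.0382) in RNA2 and by 0.57 (SE 0.16, adjusted p = 0.0261) in RNA3. Both ADAM9 and ADAM10 fell in RNA1 and did not pass later, and the joint fit called ADAM12 (0.73) and ADAM17 (0.32, adjusted p = 0.00628), both higher, of which ADAM12 passed with the background covariate (0.64, adjusted p = 3.31e-04). Of 19 ADAMTS genes, proteases of proteoglycans and procollagens, 7 rose and 3 fell of 17 tested in RNA1, and 1 fell in RNA2. That gene, ADAMTS14, which trims procollagen, had a log2FC of -0.29 (adjusted p = 0.0430) in RNA1, -0.76 (adjusted p = 0.0358) in RNA2 and -0.45 (adjusted p = 0.132) in RNA3. In the joint fit 5 of the 19 were higher and 3 lower, ADAMTS14 among the latter, and none passed with the background covariate.

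Genes for MMP activators and partners, such as plasminogen activators, proprotein convertases and integrins, counted 6 higher and 4 lower of 14 tested in RNA1 and none of 17 in RNA2 and RNA3, beside 37.6%, 1.7% and 2.8% of all genes. In the joint fit PLAT, FURIN and LRP1 were higher and PCSK5 and PCSK6 lower, 5 of 17 beside 14.1%, and none passed with the background covariate. The most abundant of them, BSG, a surface glycoprotein that induces MMPs, had a log2FC of 0.01, 0.30 and 0.25. Matrix substrates counted 6 higher and 4 lower of 17 in RNA1, 1 higher of 18 in RNA2 (VCAN, a proteoglycan) and none in RNA3, with 4 higher and 3 lower in the joint fit and 1 lower, NID2, with the background covariate. VCAN had fallen in RNA1 (-0.20, edgeR adjusted p = 0.00678). Of the 3 most abundant substrates, LAMB1, a laminin chain, rose in RNA1 (0.18, SE 0.05, edgeR adjusted p = 0.0138), and COL4A2 of basement membrane collagen rose there too (0.32, SE 0.04, adjusted p = 2.12e-04), while the laminin chain LAMC1 did not pass (0.10, adjusted p = 0.0562). None of these passed in RNA2 or RNA3. The joint fit called LAMC1 (0.35, adjusted p = 0.0122) and LAMB1 (0.30, adjusted p = 0.0359), both higher, and not COL4A2 (0.17, adjusted p = 0.239). Another laminin chain, LAMA4, named after its values were seen, fell in RNA1 (-0.28, adjusted p = 0.0120).

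Of 13 AP-1 and ETS factors, which act at many TIMP and MMP promoters, 3 rose and 6 fell in RNA1, 2 rose in RNA2, and 2 rose and 1 fell in RNA3, with 5 higher and 1 lower in the joint fit, and JUNB and FOS higher and ETS1 lower with the background covariate. Over all genes 37.6% passed in RNA1, 1.7% in RNA2, 2.8% in RNA3 and 14.1% in the joint fit. JUNB, an AP-1 subunit, rose in every experiment, by 0.47 (SE 0.10, edgeR adjusted p = 0.00448) in RNA1, 1.11 (SE 0.17, adjusted p = 0.00305) in RNA2 and 1.07 (SE 0.17, adjusted p = 3.12e-06) in RNA3. ETS1 had a log2FC of -0.65 (SE 0.05, adjusted p = 3.69e-06) in RNA1, -0.34 (SE 0.19, adjusted p = 0.293) in RNA2 and -0.55 (SE 0.16, adjusted p = 0.0388) in RNA3.

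Some TIMPs and MMPs are marks of mesenchymal or Schwann cells, so markers of these were read beside them. The summed level of 12 mesenchymal markers ranged from 476 to 488 CPM in empty vector cells and from 488 to 502 CPM in ABCC1 cells of RNA1, from 249 to 322 against 332 to 361 CPM in RNA2, and from 321 to 419 against 359 to 392 CPM in RNA3. It was therefore higher in ABCC1 cells without overlap in RNA1 and RNA2 only, where POSTN and TWIST2 were each at 0 in a group of RNA1. Of these markers 5 rose and 2 fell of 9 tested in RNA1, and none of 12 passed in RNA2 or RNA3, beside 37.6%, 1.7% and 2.8% of all genes. In the joint fit SNAI2 (0.78, edgeR adjusted p = 7.87e-06), THY1 and AEBP1 were higher and FN1 lower, 4 of 12 beside 14.1%, and SNAI2 alone passed with the background covariate. Of the Schwann cell markers, SOX10 and ERBB3 were under 1 CPM in both lines of RNA1, and S100B did not pass in any experiment (log2FC 0.02, -0.29 and -0.35 in RNA1, RNA2 and RNA3). Their part in the results was not tested. Adrenergic markers counted 1 higher and 7 lower of 10 in RNA1, 1 lower in RNA2, and 1 higher and 3 lower in RNA3, with INSM1 lower in all 3 (-2.67, -1.46 and -2.30, edgeR adjusted p = 7.12e-07, 0.00662 and 5.33e-14). TH, the first enzyme of catecholamine synthesis, was higher in RNA1 (0.46, adjusted p = 0.00395) and RNA3 (0.63, adjusted p = 0.0138). DBH, a later enzyme of that pathway, was lower in RNA1 (-0.83) and RNA3 (-0.63), as was the transcription factor PHOX2A (-0.48 and -0.68). The joint fit counted 2 higher and 3 lower of the 10.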

How the data were processed

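The authors aligned reads with STAR 2.7.3a, counted read pairs on exons with featureCounts (Subread 2.0.0), unstranded, on GRCh37, and deposited these counts without normalization; multimapped and multiply assigned pairs were not counted. Symbols matched 51996 of 57905 IDs. Counts of each experiment were fitted in edgeR 4.0.16 (R 4.3.3): filterByExpr at a minimum count of 10, TMM, robust quasi-likelihood test, two-sided, called at a Benjamini-Hochberg adjusted p of at most 0.05 over all genes tested. SE is the log2FC over the root of F. CPM uses TMM sizes, and levels between genes are per kilobase of exon. Joint and interaction fits used all 18 libraries. The 372 olfactory receptor genes gave the background level. Alternatives were DESeq2 1.42.0, limma-voom (limma 3.58.1), RLE size factors, other filters, a replicate block, a shared spread, the background as a covariate and each library left out. Replicates differed beyond sampling noise (chi-square 1.48 to 22.4 per degree of freedom). Counts cover counting error only, since pairs carry no molecular identifiers. For RNA1 the labels name 2 kits, and the paper's was used. Scripts were tested on simulated data. The members, the lists and the rule for genes named (called the same way in 2 or more experiments, otherwise the 3 most abundant, the genes that overlap a TIMP, and the 5 most like TIMP3) were chosen with earlier results of these data known. The summed level of the Schwann cell list is not reported here.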

Additional observations from a re-analysis of the deposited data

Results flagged for a closer look

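The fall of TIMP3 with ABCC1 differed in size between the experiments, by the interaction test of experiment and line over all 18 libraries (edgeR adjusted p = 0.00174). It was called with each library left out in turn, with DESeq2, RLE size factors, other filters and the replicate block, and was lost with the background level as a covariate (adjusted p = 0.169), an alternative chosen after seeing the data. Neither limma-voom nor another pooling of the spread was run for this test. The log2FC was below 0 in each experiment, at -1.95, -0.72 and -0.90.

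SYN1, the gene around TIMP1 on the other strand, also differed between the experiments by the same test (edgeR adjusted p = 0.00148), with a log2FC of -1.07 in RNA1, 0.36 in RNA2 and -0.14 in RNA3.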

How the results depend on the processing

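TIMP3 stayed below 0 in every experiment and TIMP1 above 0 under all alternatives run. TIMP3 in RNA1, RNA3 and the joint fit and TIMP1 and MMP16 in the joint fit were called under the alternatives run, except that the background covariate, added to the joint and interaction fits after seeing the data, lost TIMP1 (0.39), MMP16 (0.23) and the interaction of TIMP3 (adjusted p = 0.169). Neither limma-voom nor a shared spread was run for those fits. The covariate separated the lines in RNA1 and RNA2 and cut the calls over all genes, so a call lost with it cannot tell line from background. RLE size factors moved the median log2FC of all genes in RNA2 by 0.11, from -0.19 to -0.08 (the covariate by 0.27, to 0.078), and the share of higher genes among those called in RNA3 from 72.6% to 82.9% (DESeq2 90.8%, shared spread 92.5%, covariate 24.0%). In RNA2 that share went from 73.2% to 62.0% with limma-voom, 44.4% with the stricter filter or the covariate and 42.8% with the shared spread, and in RNA1 from 47.6% to 36.0% with the covariate. With RLE the RNA2 log2FC is 0.85 for TIMP1 and -0.62 for TIMP3. Genes called were 6382 in RNA1 (1528 with the shared spread, 1704 with the background covariate), 581 in RNA2 (2583 with DESeq2, 1299 with limma-voom, 1086 with RLE, 1402 without a filter, 4923 with the shared spread, 9 with the covariate) and 1021 in RNA3 (1549 with DESeq2, 1725 with a stricter filter of 10 counts in each library). The joint fit called 5869 (1055 with the covariate) and the interaction test 551 (893 with DESeq2, 363 with the stricter filter, 198 with the covariate). Members called were 2 in RNA1 (4 without a filter, 1 with the shared spread or the covariate), 1 in RNA2 (3 with DESeq2, limma-voom or no filter, 2 with RLE or the stricter filter, 6 with the shared spread, 0 with the covariate), 2 in RNA3 (1 with the covariate), 3 in the joint fit (5 with DESeq2, 1 with the covariate) and 1 in the interaction test (2 with DESeq2, 0 with the covariate). The log2FC of TIMP3 in RNA2 was -0.72 with limma-voom, -0.83 with the stricter filter and -0.70 with the shared spread (adjusted p = 0.00612), all called; over all alternatives its adjusted p ran from 0.00612 to 0.913. In percentage points, the TIMP3 share of the TIMPs changed by -11.6, -9.93 and -10.97 in RNA1, RNA2 and RNA3, by -15.4, -14.6 and -13.1 in raw counts, and by -13.3 in RNA3 after background subtraction. The cause of these shifts was not tested.

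Some values that did not pass the test changed sign. RECK came to 0.056 in RNA1 (shared spread), to 0.068 (DESeq2), 0.054 (RLE), 0.0054 (no filter), 0.024 (the stricter filter), 0.071 (shared spread) and 0.087 (covariate) in RNA3, and to -0.0036 (DESeq2), -0.0017 (RLE) and -0.090 (the stricter filter) in the joint fit. The covariate gave 0.15 for MMP14 in the joint fit, 0.17 for MMP9 and -0.21 for MMP15 in RNA3, and the stricter filter gave -0.074 for MMP15 in the joint fit.

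With each library left out in turn, genes called ranged from 5 (without empty vector replicate 3) to 1359 (without ABCC1 replicate 3) in RNA2, from 394 (without ABCC1 replicate 3) to 2761 (without empty vector replicate 2) in RNA3 and from 334 to 1113 in the interaction test (without ABCC1 replicate 1 of RNA1, and without ABCC1 replicate 3 of RNA2). Members called ranged from 2 to 4 in RNA1, 0 to 1 in RNA2, 1 to 3 in RNA3 and 3 to 6 in the joint fit. The log2FC ranged from -0.019 to 0.086 for TIMP2 in RNA1, and in RNA3 from -0.20 to 0.00053 for TIMP2, from -0.30 to 0.16 for MMP2, from -0.012 to 0.053 for RECK and from -0.12 to 0.13 for MMP14. MMP14 ranged from -0.11 to 0.022 in the joint fit.

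Same-numbered libraries of the lines did not clearly deviate together (correlations from -0.14 to 0.10, and 2 of 9 numbers, both in RNA3, were closest to their own). With 3 libraries in a group this comparison cannot exclude that the numbers pair the samples. The main fits left them unpaired. The numbers are those of the labels' titles; the deposited RNA3 tables carry other numbers, shifted alike in both lines, which would pair the same libraries. When replicate number entered as a block, 5356 genes were called in RNA1, 709 in RNA2, 1885 in RNA3, 4861 in the joint fit and 389 in the interaction test, and 3, 2, 3, 3 and 1 members. The block gained TIMP1 in RNA1 (adjusted p = 0.0416), TIMP2 in RNA2 (0.0416) and MMP16 in RNA3 (0.0346) and lost none. TIMP4 and MMP9 had at most 5 read pairs in any RNA1 library, too few to compare the lines there.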
